A study of Mus musculus with 2 samples.

Results

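The genes described here encode inhibitory checkpoint receptors of T cells, with 1 of their ligands: Havcr2 (TIM-3), Lilrb4a (gp49B, ILT3), Pdcd1 (PD-1), Tigit, Cd160, Cd244a (2B4, SLAMF4) and Cd274 (PD-L1). Members were all probes that the array's annotation pairs with these symbols. This gave 9 probes for 6 of the 7 genes, out of 25697 probes and 16593 named genes on the array. No listed probe was paired with Tigit, which was not analysed here. The probes were read on Illumina mouse BeadChips hybridised with RNA of CD4+ CD25+ GITR+ regulatory T cells sorted from spleen, with 1 array for Bach2 KO mice (C57BL/6 background, labelled male, 7 weeks old) and 1 array for WT C57BL/6 mice (labelled male, 6 weeks old). The labels name no promoter or Cre driver for the deletion and do not say how many mice gave each RNA.

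Checkpoint receptors damp T cell activation. Most carry tyrosine motifs in the cytoplasmic tail that, once phosphorylated, recruit phosphatases such as SHP-1 and SHP-2 and so oppose signals from the T cell receptor and CD28. They are known as marks of activated and exhausted T cells, and several are also found on effector regulatory T cells, where TIM-3 and TIGIT have been tied to strong suppressive function. Bach2 is a bZIP repressor that pairs with small Maf proteins and shares its core DNA motif with AP-1 factors.

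With 1 array per genotype there is no replicate error, so no difference below has a p-value or a standard error, and each describes these samples alone. The only scatter that could be measured was between probes of the same gene, whose log2 differences had a pooled SD of 0.23 over 1734 genes with several detected probes. Intensities are background-corrected, quantile-normalized log2 values, probes with a detection p-value under 0.01 count as detected, and log2 differences are Bach2 KO minus WT. A gene was compared if detected on at least 1 array, through its brightest detected probe. Of 7611 genes compared, 6994 were detected on both arrays. Bach2 itself had no listed probe and gave no check of the genotype. Markers of the sorted population were at like levels: all 9 compared T lineage genes stayed within 1.5-fold, as did 7 of 8 regulatory T cell markers, Foxp3 differing by -0.10, Il2ra by -0.02 and Cd4 by -0.01. The exception, Gpr83, was lower in Bach2 KO cells by a log2 difference of -1.13. Sex-linked genes read as labelled on the WT array, whereas the Bach2 KO array, also labelled male, had both Xist and Y-linked signal. Xist had a deposited intensity of 393 in Bach2 KO cells and 12.3 (not detected) in WT cells, and the Y-linked Kdm5d had 120.0 in Bach2 KO cells and 827 in WT cells, detected on both arrays. Whether animals of both sexes gave the Bach2 KO RNA is not stated in the labels and was not tested. Since each genotype is a single array, no result can be given without the Bach2 KO array. The sex-linked signal and the labelled age, 7 weeks for Bach2 KO and 6 for WT, both go with genotype. Their part in any difference below cannot be told apart from that of the genotype.

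Of the 7 genes, 2 were at least 1.5-fold higher in Bach2 KO cells, Lilrb4a and Havcr2, and both were also past 2-fold. None was 1.5-fold lower. Pdcd1, Cd160 and Cd274 were compared and lay within 1.5-fold, Cd244a was not detected on either array, and Tigit had no probe. Of all genes compared, 8.15% were at least 1.5-fold higher and 6.77% at least 1.5-fold lower in Bach2 KO cells, and 3.27% and 1.55% were past 2-fold in these directions. These shares are the background of every list count below. With median scaling in place of quantile normalization the 1.5-fold shares were 9.78% higher and 4.90% lower, and on the series matrix values 4.98% higher and 2.64% lower. The median over all genes compared was -0.02. Over the 5 compared members it was 0.32, with Pdcd1, which passed the detection filter through the knockout array only, at its lower bound, and 0.46 with Pdcd1 at its measured difference. Over the 4 members detected on both arrays it was 0.87. A median over so few genes hangs on how Pdcd1 is counted and is given as a description. The members were chosen with earlier results of these data known, so their counts and ranks beside all genes are no test.

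**Figure D1:**
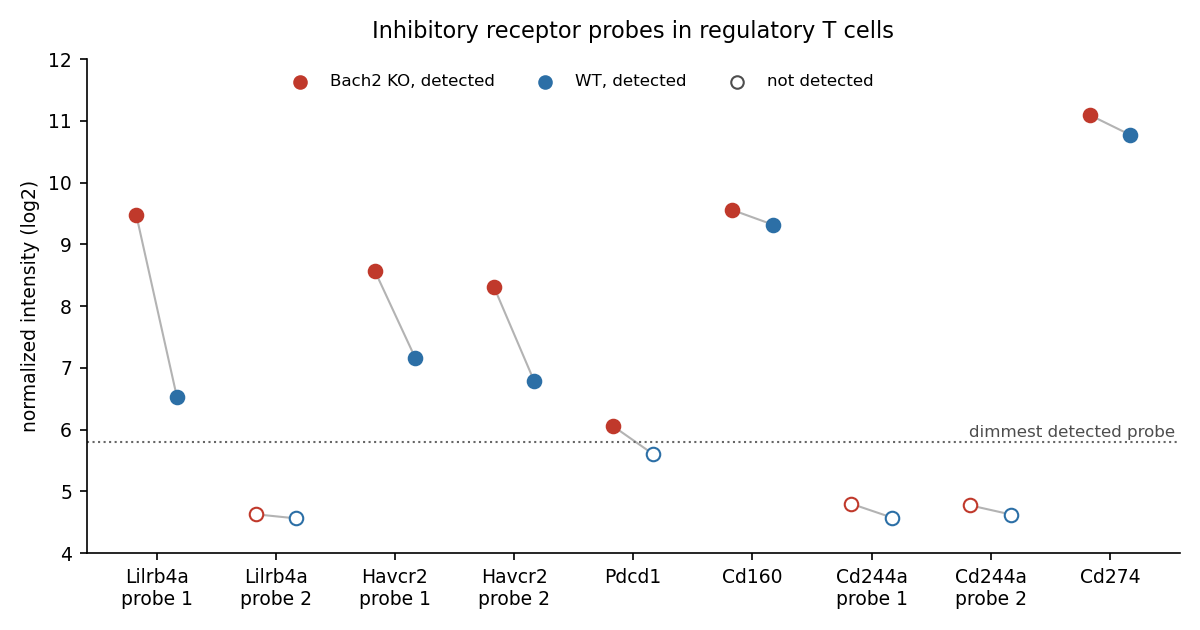
Normalized intensity (log2) of each of the 9 member probes, Bach2 KO (red, left) and WT (blue, right), with open circles for values not detected and the dimmest detected probe as a dotted line. Lilrb4a probe 1 and both Havcr2 probes were clearly brighter in Bach2 KO cells, Cd160 and Cd274 were bright on both arrays, and Lilrb4a probe 2 and both Cd244a probes lay under the line.

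Lilrb4a encodes an immunoglobulin-like receptor with inhibitory tyrosine motifs, first studied on mast cells and also found on myeloid cells and on activated lymphocytes. Its detected probe had a deposited intensity of 707 in Bach2 KO cells and 76.9 in WT cells. On the normalized log2 scale these were 9.47 in Bach2 KO cells and 6.53 in WT cells, a difference of 2.94, or 7.67-fold. On the series matrix values, where a constant remains in each intensity, the fold was 4.32. Among the genes detected on both arrays, Lilrb4a ranked number 1 of 6994 by difference under the reported processing. The next below it, 6430571L13Rik, differed by 2.75. Genes detected on 1 array only were not ranked, among them Xist, at least 7.27-fold higher in Bach2 KO cells. A second probe of Lilrb4a read -2.03 in Bach2 KO cells and -6.42 in WT cells, with detection p-values of 0.487 in Bach2 KO cells and 0.642 in WT cells, and was thus not detected on either array. Both probes are assigned to the same transcript record, yet their readings differed. The level thus rests on 1 probe that the other did not bear out, and why they differed was not tested.

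The neighbouring gene Lilr4b (gp49A), a close paralog without the inhibitory tail in mouse, moved the same way. It had a deposited intensity of 118 in Bach2 KO cells and 19.8 (not detected, detection p-value 0.088) in WT cells, which gives at least 2.39-fold higher in Bach2 KO cells, and at least 1.49-fold on the series matrix values. Probe sequences were not used here, so whether each probe tells these paralogs apart was not tested. Of the other LILR and PIR genes listed, Lilra5 and Lilra6 had probes and were not detected on either array.

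Havcr2 encodes TIM-3, a mucin-domain receptor of Th1 and effector regulatory T cells that is also carried by mast and myeloid cells. Its brighter probe had a deposited intensity of 371 in Bach2 KO cells and 127 in WT cells. These are log2 8.58 in Bach2 KO cells and 7.16 in WT cells, a difference of 1.41, or 2.66-fold. The other probe had 309 in Bach2 KO cells and 93.6 in WT cells, a log2 difference of 1.54 (2.90-fold). The probes were all detected on both arrays, and their differences were closer to each other than the scatter between probes of a gene. Havcr2 ranked number 91 of 6994, with Slc15a2 just above it (1.42) and Lat2 just below it (1.41). The other genes of the TIM family, Havcr1, Timd2 and Timd4, had probes and were not detected on either array.

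**Figure D2:**
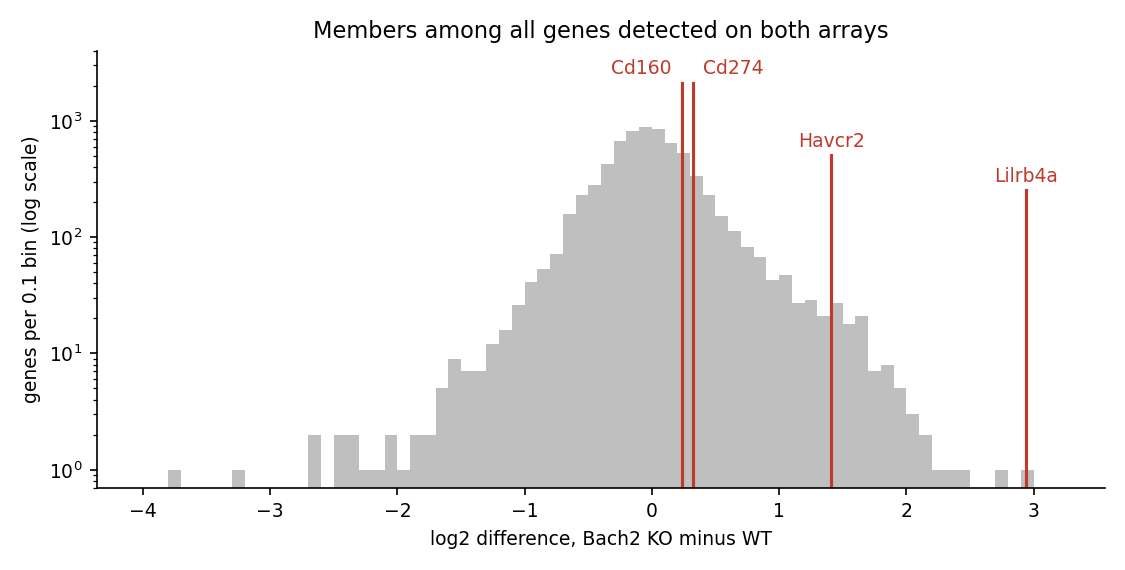
Number of genes (log scale) in each bin of log2 difference, Bach2 KO minus WT, for the 6994 genes detected on both arrays, with the 4 members among them as red lines. Lilrb4a stands at the right end of the distribution at 2.94, Havcr2 in the right tail at 1.41, and Cd274 and Cd160 on the right shoulder at 0.32 and 0.24.

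The promoters of Havcr2 and Cd244a are shown because, among the member promoters available, these hold the core motif of AP-1 and Bach proteins, TGANTCA, which reads the same on both strands. Each window runs from 250 bases before to 50 after the gene's start in RefSeq, build GRCm38.p6, and the motif is in capitals. The Havcr2 window is chr11:46454681-46454980, plus strand, and the Cd244a window is chr1:171558943-171559242, plus strand.
Havcr2: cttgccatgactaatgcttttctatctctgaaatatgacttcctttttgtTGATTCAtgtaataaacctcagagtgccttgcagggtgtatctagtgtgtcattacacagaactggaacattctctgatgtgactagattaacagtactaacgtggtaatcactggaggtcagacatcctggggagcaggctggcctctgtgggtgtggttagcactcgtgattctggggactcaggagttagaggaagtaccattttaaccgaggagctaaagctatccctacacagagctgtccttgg
Cd244a: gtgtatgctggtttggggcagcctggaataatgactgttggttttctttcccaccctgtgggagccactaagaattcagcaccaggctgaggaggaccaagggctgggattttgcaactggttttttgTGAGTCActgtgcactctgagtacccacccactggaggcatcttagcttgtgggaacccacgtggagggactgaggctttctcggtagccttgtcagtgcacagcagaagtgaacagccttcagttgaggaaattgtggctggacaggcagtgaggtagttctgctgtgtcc
The Havcr2 match, TGATTCA, starts 200 bases upstream of the gene's start, and the Cd244a match, TGAGTCA, starts 122 bases upstream. Windows were matched by symbol for 6 of the 7 genes, all but Lilrb4a, and number 7, since Cd160 has 2. The motif was in 2 of these 7 windows, and in 7.81% of the 32851 windows of all genes. A longer motif bound by Bach proteins with small Maf partners, GCTGANTCA, searched on both strands and containing the shorter one, was in none of the 7 and in 1.19% of all windows. A match is a run of letters and was not tested as a binding site. The matched genes differed in their readings, with Havcr2 detected on both arrays and higher in Bach2 KO cells, and Cd244a detected on neither.

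Pdcd1 encodes PD-1, the receptor of PD-L1 and PD-L2 that acts mainly through SHP-2. Its probe was dim, with a deposited intensity of 50.9 in Bach2 KO cells (detection p-value 0.00376) and 33.4 in WT cells (0.0201). Only the knockout value passed the detection threshold, so the data give a lower bound, at least 1.20-fold higher in Bach2 KO cells. Its normalized log2 values of 6.06 in Bach2 KO cells and 5.60 in WT cells lay close to the dimmest detected probes, which were at 5.81 on the Bach2 KO array and 5.80 on the WT array.

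Cd160 encodes a lipid-anchored immunoglobulin receptor of NK cells and some T cells that binds HVEM. Its probe had a deposited intensity of 753 in Bach2 KO cells and 614 in WT cells, or log2 9.56 in Bach2 KO cells and 9.32 in WT cells. The difference of 0.24 (1.18-fold) was about the size of the scatter between probes of a gene. By difference Cd160 ranked number 1561 of 6994, between Vopp1 and Rnf41, both also at 0.24.

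Cd274 encodes PD-L1, the ligand that engages PD-1. It had a deposited intensity of 2199.9 in Bach2 KO cells and 1702 in WT cells, and normalized log2 values of 11.10 in Bach2 KO cells and 10.77 in WT cells. The difference was 0.32 (1.25-fold), and the gene ranked number 1158 of 6994, between Minpp1 and Cenpb, both at 0.32. The transcript was well above background on both arrays, and its difference was short of 1.5-fold.

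Cd244a encodes 2B4, a SLAM family receptor of NK cells and activated CD8 T cells that binds CD48 and signals through SAP. Its probes read 5.52 and 4.53 in Bach2 KO cells and -5.59 and -2.73 in WT cells. The detection p-values were 0.261 and 0.278 in Bach2 KO cells and 0.598 and 0.471 in WT cells, so no fold is given. Its ligand gene Cd48 was well detected, at 1066 in Bach2 KO cells and 1025 in WT cells, a log2 difference of -0.01.

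Of 23 other genes listed as inhibitory receptors or related genes, 15 had a probe and 10 were compared. Of these, 7 stayed within 1.5-fold, 3 were at least 1.5-fold higher in Bach2 KO cells, none was 1.5-fold lower, and the median was 0.17. The 10 genes include Nt5e (-0.06), which encodes an enzyme, and Cd200 (0.39), which encodes a ligand. The counts and median are thus not of receptors alone. Over all genes compared, 8.15% were at least 1.5-fold higher and 6.77% at least 1.5-fold lower. Klrg1, a cadherin-binding receptor of terminally differentiated cells, had a deposited intensity of 4189.7 in Bach2 KO cells and 2173 in WT cells (0.91). Cd200r1, the receptor of CD200, had 247 in Bach2 KO cells and 109 in WT cells (1.04), and its other probe was not detected. The probes of Cd200 itself were detected on both arrays and went opposite ways, 0.39 at the brighter and -0.78 at the dimmer. The remaining gene was Cd22 (1.10, but 1.48-fold on the series matrix values), which is also a B cell marker. The classical checkpoint genes differed less. Ctla4, the CD28 antagonist, had 6213 in Bach2 KO cells and 6257 in WT cells (-0.09). Lag3, a CD4-like receptor of MHC class II, had 593 in Bach2 KO cells and 399 in WT cells, 1.43-fold higher. Btla, which shares the ligand HVEM with CD160, had 1574 in Bach2 KO cells and 2009 in WT cells (-0.40). Lair1, Ceacam1, Cd300a, Cd300lf and the enzyme gene Entpd1 were not detected on either array.

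Of the ligands and their relatives, 8 of 17 genes with a probe were compared, with 1 at least 1.5-fold higher, 1 at least 1.5-fold lower and a median of 0.09. Lgals3, a galectin that binds LAG-3, had 4042 in Bach2 KO cells and 2043 in WT cells, a difference of 0.95 (1.93-fold). Pvr (CD155), the ligand shared by TIGIT and CD226, had 112 in Bach2 KO cells and 183 in WT cells, a difference of -0.68, and its other probe differed by -0.64. It was past 1.5-fold in 10 of 12 settings of the processing, and differed by -0.56 with an offset of 50 and by -0.43 on the series matrix values. Lgals9, the galectin ligand of TIM-3, differed by -0.16 and 0.07 at its probes, and Pdcd1lg2, which encodes PD-L2, by 0.29. The HVEM gene Tnfrsf14 and the TIGIT ligand gene Nectin2 were not detected on either array.

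Of 17 costimulatory receptors, 14 were compared, none was 1.5-fold higher and 1 was 1.5-fold lower, with a median of 0.16. The lower gene was Ly9 (SLAMF3), with differences of -0.96 and -1.19 at its probes. The Icos probes differed by 0.44 and 0.67. Cd226, the activating counterpart of TIGIT, differed by 0.25 and 0.41 at the probes detected on both arrays, whereas its dimmest probe, detected in WT cells only, was at least 1.56-fold lower in Bach2 KO cells. Cd28 differed by -0.11. In the SLAM family, which holds the relatives of Cd244a and includes Ly9, 6 genes were compared. Slamf7 was at least 1.96-fold higher in Bach2 KO cells (at least 1.32-fold on the series matrix values), with 93.8 in Bach2 KO cells and 38.0 (not detected) in WT cells, Ly9 was lower, and the other 4 stayed within 1.5-fold. The median of the 6 was 0.13. The 4 relatives of Pdcd1 in the CD28 family, Cd28, Ctla4, Icos and Btla, all stayed within 1.5-fold at their brightest probe (median -0.10).

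Most of the listed signalling genes, which are adaptors, phosphatases and kinases such as Fyn and Csk, differed little. Not all of them carry inhibitory signals. Of 19 listed genes 17 had a probe and 13 were compared, of which 11 stayed within 1.5-fold, with a median of -0.04. Ptpn6 (SHP-1) differed by -0.21, Ptpn11 (SHP-2) by 0.10, Sh2d1a (SAP), the adaptor of SLAM receptors, by -0.16, and Bag6, a partner of the TIM-3 tail, by -0.12. The 1 gene higher was Themis, an adaptor of T cell receptor signalling that binds SHP-1, with 703 in Bach2 KO cells and 211 in WT cells, a difference of 1.62 (3.07-fold). The 1 gene lower was Dok1 (-0.61), at a dim probe. Its other detected probe differed by 0.13, and it was past 1.5-fold in 6 of 12 settings and turned to 0.16 with an offset of 1.

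Transcription factors known to act on checkpoint receptor genes went both ways. Of 33 listed genes 28 had a probe and 22 were compared. Of these, 4 were at least 1.5-fold higher in Bach2 KO cells and 4 at least 1.5-fold lower, with a median of -0.01. The shares over all genes compared were 8.15% higher and 6.77% lower. Tbx21 (T-bet), a regulator of TIM-3 in Th1 cells, had 350.3 in Bach2 KO cells and 139 in WT cells (1.21). Nfil3, known to induce TIM-3, had 1347 in Bach2 KO cells and 659 in WT cells (0.97). Id2 (1.08) and Irf4 (0.63) were the others higher, and Id3 (-0.96), Fos (-0.71), Foxo1 (-0.70) and Stat3 (-0.62, and 0.16 and -0.09 at its other probes) were lower. Stat3 was past 1.5-fold in 9 of 12 settings, and Fos in 11 of 12. Nfatc1, the calcium-responsive factor that induces PD-1, differed by -0.05, and Prdm1, Nr4a1 and Nr4a3 were not detected on either array. Of these, the brighter Prdm1 probe lay just short of the threshold in Bach2 KO cells, at 38.7 (detection p-value 0.0113). It read 4.75 in WT cells (0.267), so no fold is given.

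**Figure D3:**
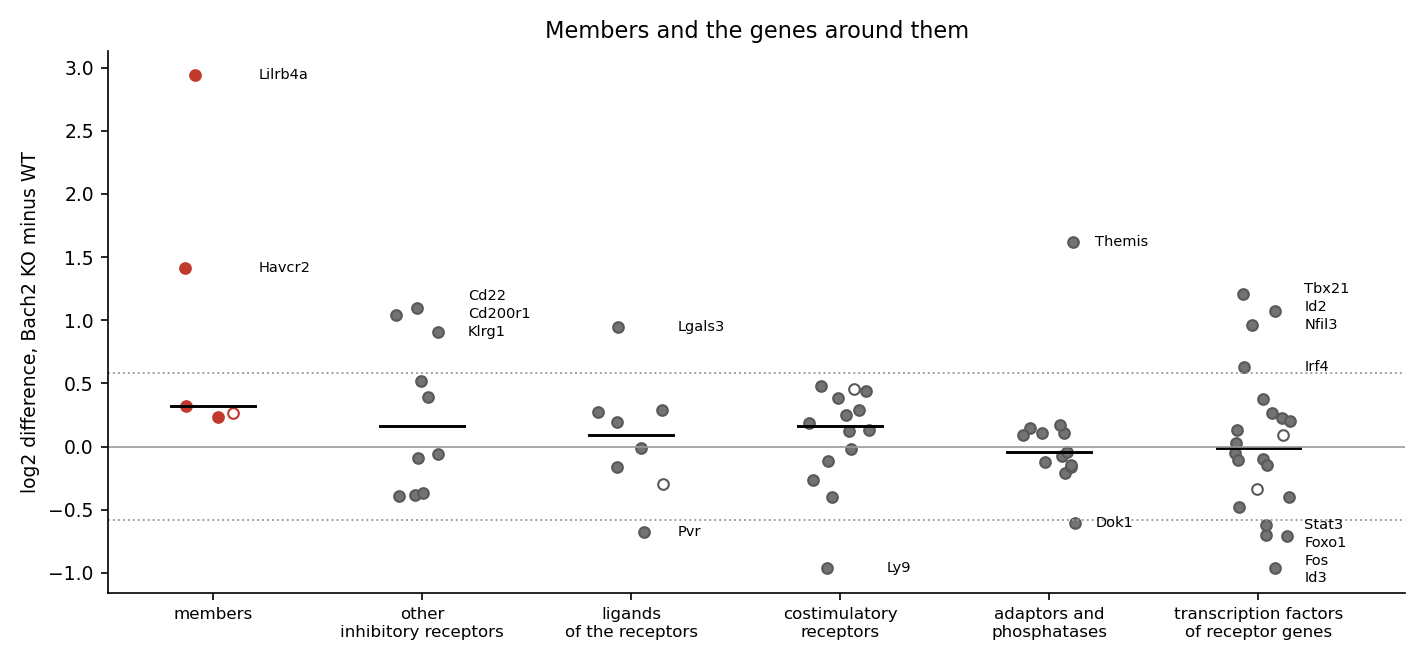
Log2 difference, Bach2 KO minus WT, of each compared gene in the members and in 5 lists of related genes, with the list median as a bar, 1.5-fold as dotted lines, and open circles for lower bounds of genes detected on 1 array. Lilrb4a and Havcr2 lie above every gene of the lists except Themis, which lies between them, and the list medians run from -0.04 to 0.17.

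Because several members are also expressed outside T cells, markers of other cell types were read beside them. In bulk RNA, a change in the number of cells of a type and a change in RNA per cell cannot be told apart. Of 12 mast cell and basophil genes with a probe, 7 were compared and 6 were at least 1.5-fold higher in Bach2 KO cells, with a median of 1.20. Gata2, a transcription factor of mast cells and basophils, differed by 2.25 (4.75-fold), but its WT value of log2 5.83 was close to the dimmest detected probe, and on the series matrix values it was 2.39-fold higher. Cpa3 differed by 1.47 (2.77-fold, and 1.80-fold on the series matrix values), Fcer1a by 1.44, Prss34 by 1.20 and Hdc by 1.08. Mcpt8 differed by 0.96, past 1.5-fold in 11 of 12 settings, and Cd200r3 was at least 1.42-fold higher. The summed deposited intensity of the 7 compared genes was 1533 in Bach2 KO cells and 511 in WT cells. The mast cell proteases Cma1, Mcpt4, Tpsab1 and Tpsb2 and the receptor subunit Ms4a2 were not detected on either array. Of 12 myeloid genes 5 were compared and 2 were at least 1.5-fold higher, Fcer1g (0.73) and Tyrobp (at least 2.23-fold, but at least 1.43-fold on the series matrix values). The summed intensity of the 5 was 4268 in Bach2 KO cells and 3375 in WT cells, Lyz2 differed by 0.04, Cst3 by 0.20 and Adgre1 by -0.14, and Cd14, Itgam, Itgax, Spi1, Cybb, Fcgr3 and Aif1 were not detected on either array. Thus 6 of 7 compared mast cell and basophil genes and 2 of 5 compared myeloid genes were at least 1.5-fold higher, beside 8.15% of all genes compared. The part of either list in the Lilrb4a and Havcr2 differences was not tested.

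For Cd160 and Cd244a the NK cell markers are the relevant neighbours. Of 9 compared, 6 were at least 1.5-fold higher in Bach2 KO cells and Prf1 was lower, with a median of 0.73. Among all genes compared, 8.15% were at least 1.5-fold higher and 6.77% at least 1.5-fold lower. Nkg7 (1.70), Xcl1 (1.51) and Klrd1 (0.90) were past 1.5-fold in all 12 settings. The others higher were Klrb1c (0.73), Klre1 (at least 1.72-fold) and Klrk1 (at least 1.64-fold). On the series matrix values, and with an offset of 50, only Nkg7, Xcl1 and Klrd1, 3 genes, were 1.5-fold higher. Prf1 differed by -0.60, past 1.5-fold in 8 of 12 settings, and by 0.01 at its other, dim probe. The summed intensity of the 9 was 4869 in Bach2 KO cells and 3367 in WT cells. The defining NK receptor gene Ncr1 and the granzyme genes Gzma and Gzmb were not detected on either array. Cd8a was not detected either, and Cd8b1 differed by 0.20. Among 4 compared B cell genes, which include Cd22, 2 were higher, Cd79b by 1.16 and Cd22 by 1.10, and Fcmr was lower by -1.37, while Ms4a1 and Pax5 were not detected. All 6 compared neutrophil genes were at least 1.5-fold lower in Bach2 KO cells, with a summed intensity of 605 in Bach2 KO cells and 3046 in WT cells, as were all 3 compared red cell genes, with 213 in Bach2 KO cells and 585 in WT cells. The part of these markers in the members' values was not tested.

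**Figure D4:**
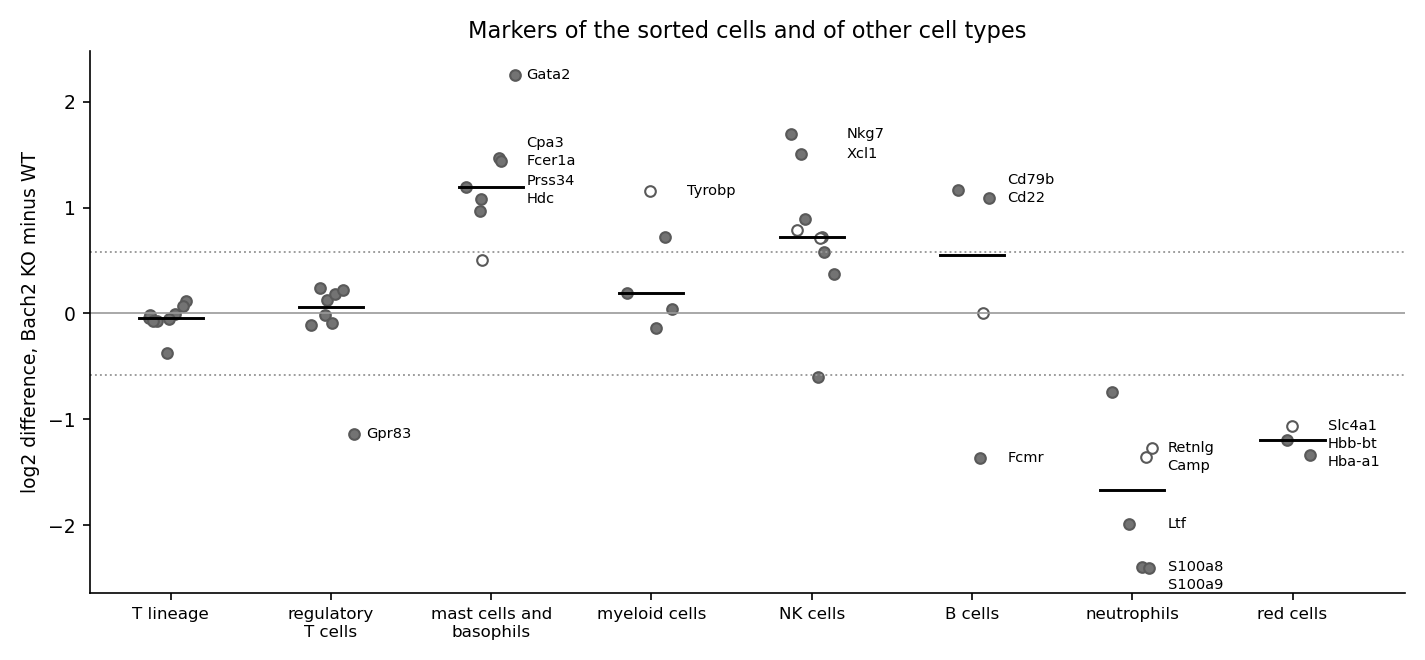
Log2 difference, Bach2 KO minus WT, of each compared marker of the sorted population and of 6 other cell types, with list medians as bars, 1.5-fold as dotted lines, and open circles for lower bounds. T lineage and regulatory T cell genes centre near 0 (medians -0.05 and 0.06), mast cell and basophil genes lie above 0, and neutrophil and red cell genes lie below it.

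Lilrb4a and Havcr2 stayed the members that differed most when the arrays were processed in other ways. The Lilrb4a difference ran from 2.11 to 3.16 and that of Havcr2 from 1.0004 to 1.51 over 12 settings, all at least 2-fold. The difference of Cd274 ran from 0.32 to 0.40 and that of Cd160 from 0.23 to 0.32 over the same settings, and the value counted for Pdcd1 from 0.06 to 0.46 over 11 settings, none at 1.5-fold.

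**Figure D5:**
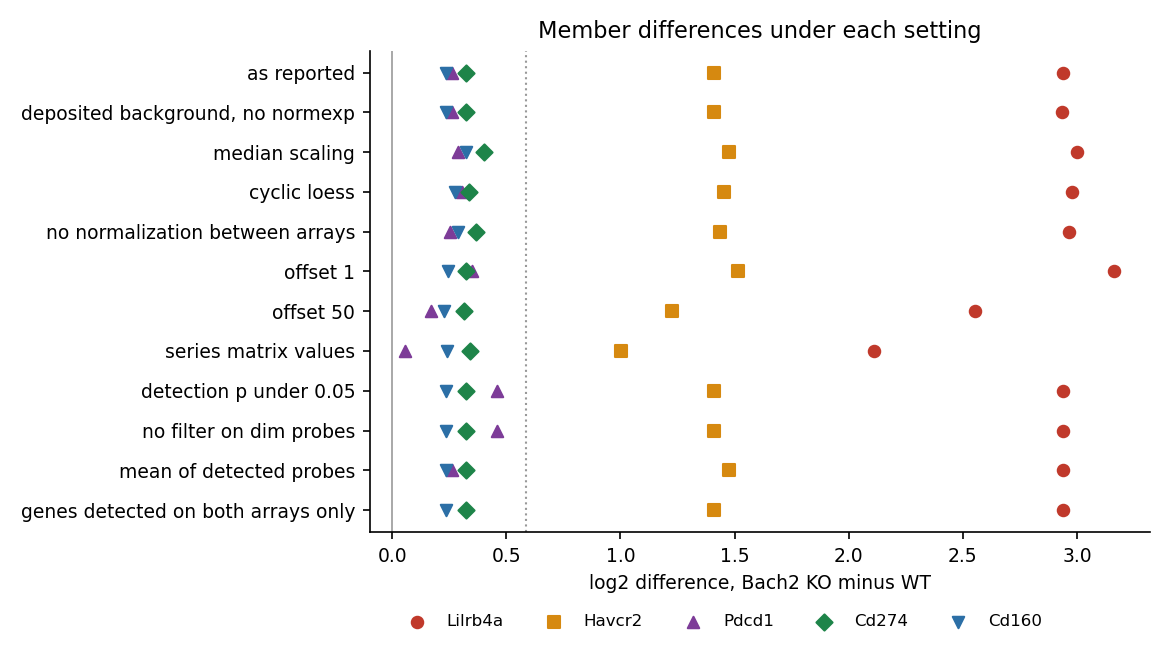
Log2 difference, Bach2 KO minus WT, of the 5 compared members (symbols) under the reported processing and each alternative (rows), with 1.5-fold as a dotted line. Lilrb4a and Havcr2 stay to the right of the line in every row, and Pdcd1, Cd274 and Cd160 stay to the left of it.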

How the data were processed

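Each array's intensity and detection p-value per probe were deposited by the authors in 1 table, which is not normalized per the file headers. The deposited intensity values are background-subtracted, since 29.5% were below 0 for Bach2 KO and 30.4% for WT. In the sources used here, scanning and background steps are not given. The series matrix holds the same intensities, linearly rescaled for each array (for Bach2 KO and WT, slopes 0.779 and 0.782, intercepts 83.3 and 86.6, residuals of at most 0.0091), on a linear scale without gene centring, with medians of 95.6 and 99.7. Labelling followed the maker's procedure, per the labels' protocols.

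GEO's annotation of the platform named the probes: 23978 had 1 symbol, 0 had several and 1719 were not listed. For 23962 the gene number and symbol matched RefSeq (GRCm38.p6).

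Background was corrected by normexp from the detection p-values, with an offset of 16, quantile normalization and log2 (limma 3.58.1, R 4.3.3). A gene undetected on 1 array was counted by a lower bound, setting its bright value against its dim value or, where that is higher, the lowest detected signal of the dim array. No test was possible with 1 array per genotype, and this number limits the precision. The members and gene lists were chosen with earlier results of these data known. Named genes were all members, and list genes past 1.5-fold, defining a list or partnering a member. Not every list gene past 1.5-fold was named in the text, and neutrophil and red cell genes were given as counts and sums. Likeness was rank by difference, since a pair of arrays gives 1 difference per gene. The steps were tested on simulated data.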

Additional observations from a re-analysis of the deposited data

How the results depend on the processing

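The alternatives were the background correction, normalization (median scaling, cyclic loess, none), offsets of 1 and 50, the series matrix values, a detection threshold of 0.05 or none, the mean of a gene's detected probes, and genes detected on both arrays only. Under all of them 2 members were at least 2-fold higher in Bach2 KO cells and 0 were 1.5-fold lower. Of 98 values of members and their counts under alternatives, 95 stayed within the scatter between probes (0.23) or within 1.5 times the count. The exceptions were Havcr2 on the series matrix values (1.0004) and Lilrb4a with an offset of 50 (2.56) and on the series matrix values (2.11). In both settings a larger constant is added to each intensity, which draws differences of dim probes towards 0. Some of the 95 values could not move. For members detected on both arrays, settings that change only the detection rule returned the reported value. The mean of detected probes did the same for members with 1 detected probe. Pdcd1 counted as within the scatter at 0.06 on the series matrix values, against 0.26 as reported. Dok1 turned to 0.16 with an offset of 1, where its other probe became the brightest, and was past 1.5-fold in 6 of 12 settings. Of 396 counts of list genes under alternatives, 27 moved by over 1.5 times, 24 of them by 1 gene, 1 by 2 genes and 2 by 3 genes; the last were the NK cell genes with an offset of 50 and on the series matrix values, 3 against 6. Pdcd1 gave no value among genes detected on both arrays only. The share of all genes at least 2-fold higher was 3.27% as reported, 1.73% on the series matrix values and 1.91% with no filter. The share at least 2-fold lower was 1.55%, 0.657% and 1.02% in the same settings, and 0.999% with an offset of 50. At 1.5-fold, in the same settings, the higher share was 8.15%, 4.98% and 5.25%, and the lower share 6.77%, 2.64% and 4.81%, and 4.51% with an offset of 50. No paired analysis was possible because each genotype has 1 array, and no array could be left out. Signal near the dimmest detected probe limits Pdcd1, and both Cd244a probes lay below detection.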
